A study of Mus musculus with 9 samples.

Results

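Small leucine-rich proteoglycans were measured in muscle of cisplatin-treated and control mice through 8 genes chosen by symbol. The class I genes were Dcn (decorin), Bgn (biglycan) and Aspn (asporin). The class II genes were Lum (lumican), Prelp and Omd (osteomodulin). Ogn (osteoglycin, also called mimecan) is of class III and Podn (podocan) of class V. The 8 genes stand among 23238 gene symbols in the count tables, and all 8 passed the filter on low counts. The 9 libraries were made from the gastrocnemius, a calf muscle, of female mice of the inbred strain C57BL/6, labelled as 4 weeks old. The RP group was given 100 mg/kg RP in water by mouth for 9 days and 4 injections of 3 mg/kg cisplatin, a platinum drug that crosslinks DNA. The Cisplatin group was given the same 4 injections with plain water by mouth. The Normal group was given saline injections and water on the same schedule. Each group had 3 libraries. RP is not spelled out in the sample labels, the series title concerns an extract of Paeonia lactiflora, and no group received RP without cisplatin. The labels name separate samples without saying that each is 1 mouse, so p-values cover only sample-to-sample spread, which may be technical.

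Small leucine-rich proteoglycans are secreted proteins whose core is a curved stack of leucine-rich repeats between cysteine clusters, and most carry chondroitin, dermatan or keratan sulfate chains. They bind collagen fibrils and limit their thickness, and several bind growth factors of the TGF-beta family. In skeletal muscle they belong to the connective tissue around fibres and are made mainly by fibroblast-like cells.

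The libraries held 8196030 to 10678342 counts in all and 2578 to 24684 counts over the 8 genes. Values are CPM, counts scaled to the size of the library, with TMM scaling, which equalises libraries on the bulk of their genes. The libraries read 1 tag near the 3′ end of each transcript, so a level does not depend on gene length. Markers of fast skeletal muscle fibres (Ckm, Acta1, Myh4, Myh1, Actn3, Pvalb) were detected in every library, their sum being 75792 to 89418 CPM in RP, 47895 to 58947 CPM in Cisplatin and 68918 to 84287 CPM in Normal. Precursor ribosomal RNA Rn45s took 7.38 to 11.8% of counts in RP, 9.23 to 12.1% in Cisplatin and 12.6 to 12.8% in Normal.

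Several of these genes are neighbours in the mouse genome (GENCODE M21, GRCm38, the assembly that mm10 names). Aspn, Omd and Ogn follow each other on the plus strand of chromosome 13, Aspn at chr13:49544443-49567565, Omd at chr13:49582462-49592822 and Ogn at chr13:49608046-49624501, with gaps of 14.9 and 15.2 kb and no other protein-coding gene lying within the gaps. Ecm2, a related gene, lies 11.7 kb before Aspn. Dcn (chr10:97479609-97518143) and Lum (chr10:97565128-97572703) are 47.0 kb apart on the plus strand of chromosome 10, followed by the related genes Kera and Epyc. Prelp (chr1:133910304-133921414, minus strand) lies between Optc and Fmod. Bgn (chrX:73483602-73495933, plus strand) and Podn (chr4:108014791-108096445, minus strand) have no family member beside them. The Cenpp gene overlaps Aspn, Omd and Ogn on the opposite strand, and it had 11 to 16 counts per library in RP, 6 to 13 in Cisplatin and 10 to 26 in Normal. The strand setting of the counting is not given in the sources used here. Omd had 16 to 32 counts in RP, 4 to 12 in Cisplatin and 19 to 33 in Normal, so the ranges of Cenpp and Omd overlapped in Cisplatin and Normal and met in RP. The 3′ end of Cenpp, where these libraries read, lies 103542 bp from that of Aspn, 128799 bp from that of Omd and 160478 bp from that of Ogn.

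The 250 bases before the transcription start of the 3 neighbours on chromosome 13 are shown because these genes share a stretch of chromosome and had unequal log2 fold changes. Sequences are from RefSeq (GRCm38.p6), plus strand, 5′ to 3′, at chr13:49544193-49544442 for Aspn, chr13:49582212-49582461 for Omd and chr13:49607765-49608014 for Ogn. Capitals mark matches on either strand to any of 4 motifs. The TATA box was searched as TATAAA. The CCAAT box was searched under the letters of its name. The GC box was searched as GGGCGG. The AP-1 site was searched as TGANTCA.
Aspn: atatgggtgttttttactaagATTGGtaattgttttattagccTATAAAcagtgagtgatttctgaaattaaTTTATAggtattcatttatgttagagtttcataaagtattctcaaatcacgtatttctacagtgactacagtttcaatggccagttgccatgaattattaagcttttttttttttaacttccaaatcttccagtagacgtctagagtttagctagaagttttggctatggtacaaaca
Omd: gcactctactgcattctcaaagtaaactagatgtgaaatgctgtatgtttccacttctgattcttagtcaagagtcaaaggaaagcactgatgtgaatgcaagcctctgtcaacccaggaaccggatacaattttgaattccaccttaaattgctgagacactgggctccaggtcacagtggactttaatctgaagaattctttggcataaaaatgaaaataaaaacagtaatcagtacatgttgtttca
Ogn: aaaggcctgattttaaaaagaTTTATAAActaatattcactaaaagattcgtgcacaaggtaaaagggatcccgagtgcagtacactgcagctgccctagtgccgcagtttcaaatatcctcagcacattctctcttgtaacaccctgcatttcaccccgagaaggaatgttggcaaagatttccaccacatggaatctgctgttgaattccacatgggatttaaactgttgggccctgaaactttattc
TATAAA was found in Aspn and Ogn, on both strands in each and as overlapping matches in Ogn, and in 12.4% of 32851 promoters of that length. In both genes these matches lie nearer the 5′ end of the stretch than the transcription start. The search took no account of position, so a match is not shown to be a working TATA box. CCAAT was found in Aspn and Prelp (33.8% of all promoters), GGGCGG in Bgn and 1 of the 2 Podn promoters (32.7%), and TGANTCA in no member promoter searched (6.75%). The table held promoters for 6 of the 8 genes. Their GC content was 30.0% in Aspn, 38.4% in Omd and 42.0% in Ogn, and 55.6% in Prelp, 64.4% in Bgn and 64.0 and 78.0% in Podn, against a median of 52.4% over all promoters.

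All 8 genes fell in Cisplatin against Normal, and all 8 rose in RP against Cisplatin. In Cisplatin against Normal 54.5% of the 12859 genes tested were called, 28.2% fell by edgeR's quasi-likelihood test (Benjamini-Hochberg adjusted p under 0.05 over all genes) and 26.3% rose. Cisplatin libraries all lay below the Normal ones for 31.9% of genes and above them for 30.3%. For RP against Cisplatin 48.8% were called, 24.6% rose and 24.2% fell, and 29% lay higher without overlap and 27.8% lower. The median log2 fold change of the 8 genes was -3.23 in Cisplatin against Normal, where that of all genes was -0.08. It was 2.40 in RP against Cisplatin, where that of all genes was 0.07. The 2 comparisons share the Cisplatin libraries, so they are not independent of each other. In muscle tissue, fewer cells of a type and less RNA per cell cannot be told apart.

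**Figure D1:**
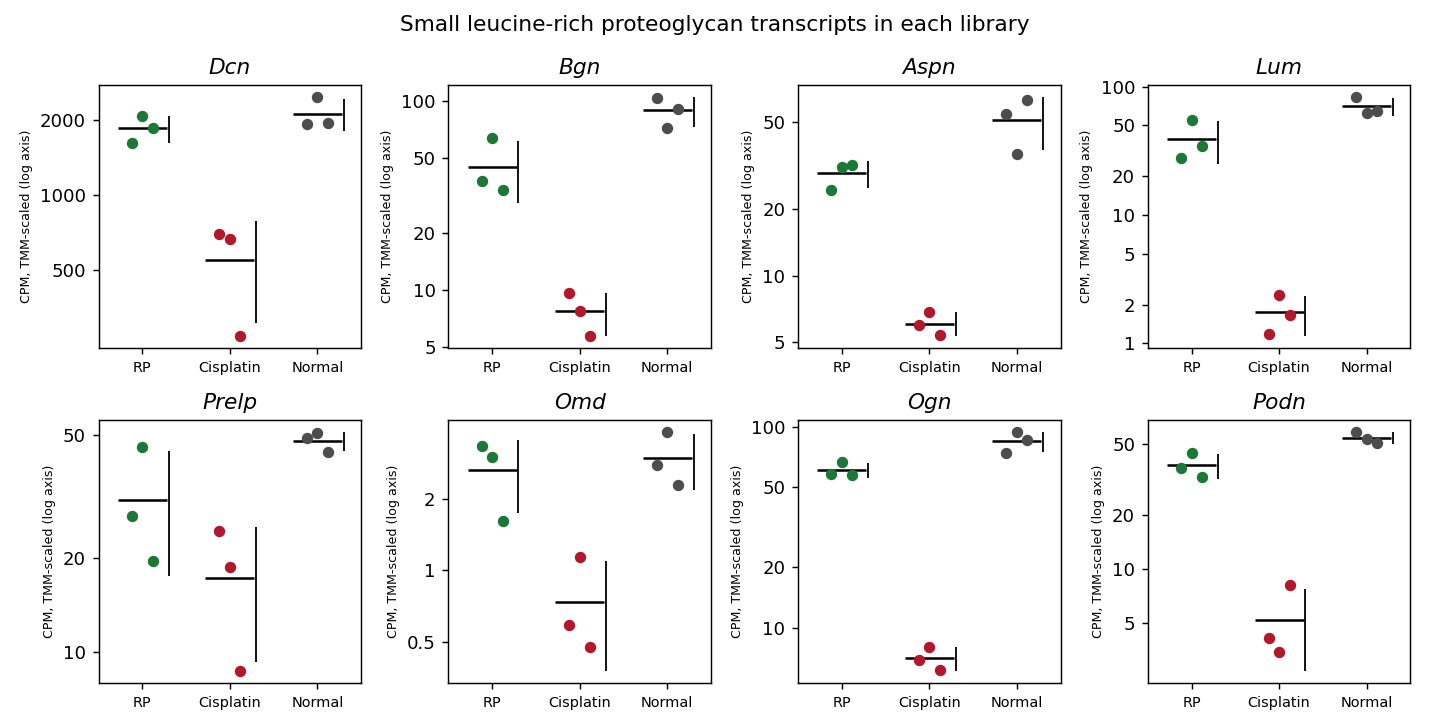
TMM-scaled CPM of each gene (log axes, a scale of its own in each panel) in the 3 RP, 3 Cisplatin and 3 Normal libraries. Points are libraries, horizontal lines are means and vertical lines are SDs; the Cisplatin libraries lie lowest in each panel, and in the Prelp panel they overlap the RP libraries.

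Dcn, of class I, was the most abundant of the 8 genes, and its mean in Cisplatin was 25.7% of that in Normal. Decorin carries a chondroitin or dermatan sulfate chain, binds collagen I fibrils and can sequester TGF-beta and myostatin. Dcn stood at 1624, 2086 and 1862 CPM in the RP libraries, at 697, 668 and 271 CPM in the Cisplatin libraries and at 1931, 2482 and 1956 CPM in the Normal libraries. The Cisplatin libraries lay below all others, Cisplatin replicate 3 farthest, while RP and Normal overlapped. Its log2 fold change was -1.96 ± 0.28 (SE, adjusted p = 5.92e-05) in Cisplatin against Normal and 1.77 ± 0.28 (adjusted p = 0.000176) in RP against Cisplatin.

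The other class I genes, Bgn and Aspn, stood at 8.62 and 11.9% of their Normal means in Cisplatin. Biglycan resembles decorin, carries chondroitin or dermatan sulfate chains, and can act on Toll-like receptors when free of the matrix. Bgn stood at 37.6, 63.8 and 33.9 CPM in RP, at 9.63, 7.80 and 5.71 CPM in Cisplatin and at 105, 72.6 and 91.1 CPM in Normal. The 3 groups did not overlap, with RP between the other two. Its log2 fold change was -3.53 ± 0.27 (adjusted p = 2.85e-07) in Cisplatin against Normal and 2.54 ± 0.26 (adjusted p = 5.94e-06) in RP against Cisplatin. Asporin has an aspartate-rich end in place of an attached sugar chain and binds collagen and TGF-beta. Aspn stood at 24.5, 31.3 and 31.8 CPM in RP, at 5.99, 6.84 and 5.35 CPM in Cisplatin and at 54.4, 35.7 and 62.9 CPM in Normal. Again no groups overlapped, with Normal replicate 2 closest to the RP libraries. Aspn had a log2 fold change of -3.06 ± 0.22 (adjusted p = 2.29e-07) in Cisplatin against Normal and 2.26 ± 0.22 (adjusted p = 4.12e-06) in RP against Cisplatin.

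Lum, of class II, had the largest estimated change of the 8 genes in both of these comparisons. Lumican, known from the cornea, carries keratan sulfate in that tissue and limits the width of collagen fibrils. Lum stood at 27.9, 55.5 and 34.3 CPM in RP, at 1.17, 2.38 and 1.67 CPM in Cisplatin and at 83.5, 63.0 and 64.4 CPM in Normal. The Cisplatin values rest on 10, 25 and 14 counts, and no groups overlapped. Its mean in Cisplatin was 2.47% of that in Normal. The log2 fold change was -5.30 ± 0.31 (adjusted p = 5.36e-08) in Cisplatin against Normal, which ranked 69 from the lowest of the 12859 genes. It was 4.46 ± 0.31 (adjusted p = 2.95e-07) in RP against Cisplatin.

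Prelp changed least in both comparisons by its log2 fold change. The PRELP protein has a basic end that binds heparan sulfate and links basement membranes to the surrounding collagen. Prelp stood at 27.4, 45.9 and 19.7 CPM in RP, at 24.6, 18.7 and 8.68 CPM in Cisplatin and at 48.9, 50.6 and 44.2 CPM in Normal. The Cisplatin libraries lay below the Normal libraries but overlapped the RP libraries. For Prelp the log2 fold change was -1.46 ± 0.33 (adjusted p = 0.00185) in Cisplatin against Normal. In RP against Cisplatin it was 0.84 ± 0.33 (adjusted p = 0.0467), just past the threshold. That call was lost in 8 of 18 alternative analyses, 7 of them leaving out 1 library. Without RP replicate 2 the value was 0.44 (adjusted p = 0.278), without Cisplatin replicate 3 it was 0.51 (adjusted p = 0.157), and adjusted p ranged from 0.00705 to 0.278 over all 18. The others among the 7 were each of the 3 Normal libraries, Cisplatin replicate 2 and RP replicate 1, with values of 0.83, 0.83, 0.83, 0.90 and 0.92 without them.

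Omd was the least abundant of the 8. Osteomodulin carries keratan sulfate and is known from bone, where osteoblasts make it. Omd stood at 3.31, 2.98 and 1.61 CPM in RP, at 0.587, 1.14 and 0.476 CPM in Cisplatin and at 2.78, 3.82 and 2.29 CPM in Normal. The Cisplatin libraries lay below all others, and RP and Normal overlapped. The log2 fold change was -1.96 ± 0.51 (adjusted p = 0.00503) in Cisplatin against Normal and 1.79 ± 0.51 (adjusted p = 0.00986) in RP against Cisplatin, with wider errors than the other members at these low counts. Omd was the only member that did not reach the minimum of the filter in every Cisplatin library, and it was called in both comparisons with no filter too.

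Ogn and Podn, of classes III and V, stood at 8.34 and 9.63% of their Normal means in Cisplatin. Osteoglycin was first described in bone and is a small keratan sulfate proteoglycan of the cornea and other connective tissues. Ogn stood at 58.1, 66.9 and 57.3 CPM in RP, at 6.93, 8.08 and 6.19 CPM in Cisplatin and at 74.2, 93.7 and 86.3 CPM in Normal. Replicates were close together and no groups overlapped. Ogn had a log2 fold change of -3.58 ± 0.16 (adjusted p = 1.74e-08) in Cisplatin against Normal and of 3.10 ± 0.16 (adjusted p = 4.93e-08) in RP against Cisplatin, the smallest errors of the 8. Podocan was first described in the kidney and is known to bind collagen I and to restrain smooth muscle growth. Podn stood at 36.8, 44.6 and 32.6 CPM in RP, at 4.11, 3.42 and 8.09 CPM in Cisplatin and at 58.6, 53.2 and 50.5 CPM in Normal. No groups overlapped, and Cisplatin replicate 3, the lowest Cisplatin library for Dcn, Bgn, Ogn, Prelp, Aspn and Omd, was the highest for Podn. The log2 fold change of Podn was -3.39 ± 0.26 (adjusted p = 3.03e-07) in Cisplatin against Normal and 2.88 ± 0.26 (adjusted p = 1.79e-06) in RP against Cisplatin. The annotated Podn gene overlaps Scp2 on the same strand, but the 3′ ends of the 2 genes, where these libraries read, are 29048 bp apart.

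For the neighbours on chromosome 13 the 95% interval of the log2 fold change in Cisplatin against Normal ran from -3.93 to -3.22 for Ogn, from -3.55 to -2.58 for Aspn and from -3.05 to -0.87 for Omd, so that of Ogn overlapped that of Aspn but not that of Omd. On chromosome 10 it ran from -5.97 to -4.63 for Lum and from -2.56 to -1.36 for Dcn. These differences between genes were not tested by the fit.

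**Figure D2:**
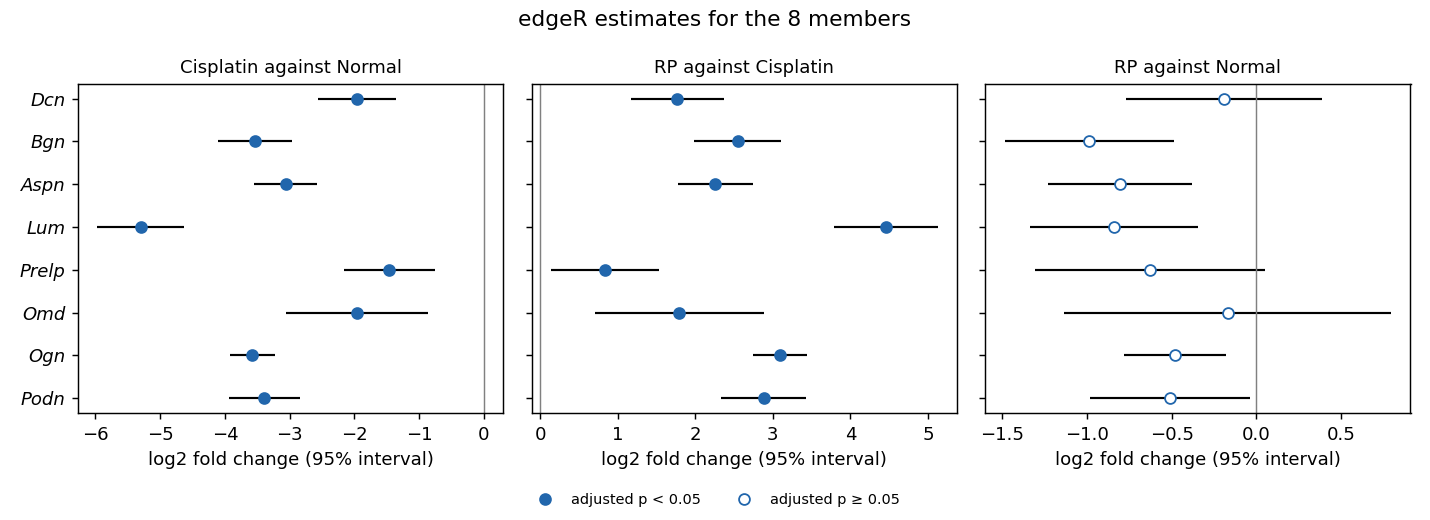
edgeR log2 fold changes of the 8 genes with 95% intervals in the 3 comparisons, the horizontal scale differing between panels. Filled points passed an adjusted p of 0.05: all 8 in Cisplatin against Normal and in RP against Cisplatin, and 0 in RP against Normal, where all 8 estimates lie below 0.

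In RP against Normal, 0 of the 8 genes were called by edgeR, although 5 had an unadjusted p under 0.05. Over all genes 0.505% were called, 0.319% lower and 0.187% higher, and 5 of the 8 genes, Lum, Bgn, Ogn, Aspn and Podn, lay lower in every RP library than in every Normal library, as did 9.53% of all genes, while 9.65% lay higher. An unadjusted p under 0.05 was found for 12.8% of all genes. Bgn stood farthest from Normal, with a log2 fold change of -0.99 (95% interval -1.49 to -0.49, adjusted p = 0.0849). Lum was at -0.84 (-1.34 to -0.34, adjusted p = 0.147) and Aspn at -0.80 (-1.23 to -0.38, adjusted p = 0.103). Podn was at -0.51 (-0.98 to -0.04, adjusted p = 0.353) and Ogn at -0.48 (-0.78 to -0.18, adjusted p = 0.17). For the remaining genes the interval held 0: Prelp was at -0.63 (-1.31 to 0.05, adjusted p = 0.429), Dcn at -0.19 (-0.77 to 0.39, adjusted p = 0.82) and Omd at -0.17 (-1.14 to 0.80, adjusted p = 0.916).

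As means, RP reached 50.4% of the Normal level for Bgn, 55.8% for Lum, 57.2% for Aspn, 64.7% for Prelp, 70.2% for Podn, 71.8% for Ogn, 87.5% for Dcn and 89.0% for Omd. DESeq2 called 3 of the 8 lower in RP than in Normal (Bgn, Lum and Aspn), edgeR with no filter on low counts called the same 3 genes, and limma-voom called 1 (Bgn). Leaving out RP replicate 2 gave calls for Bgn (-1.32, adjusted p = 0.0109) and Lum (-1.17, adjusted p = 0.0173), and leaving out Normal replicate 2 gave a call for Aspn (-1.002, adjusted p = 0.018). The adjusted p of Bgn ranged from 0.00294 to 0.415 over 18 alternatives, that of Lum from 0.0151 to 0.493 and that of Aspn from 0.0151 to 0.446.

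The make-up of the 8 genes' transcripts was described next. In level per transcript, Dcn led in every group and Omd was lowest. In Normal the means of Bgn (89.4 ± 16.1 CPM, SD, n = 3 throughout), Ogn (84.7 ± 9.85) and Lum (70.3 ± 11.4) followed, with overlapping ranges of mean ± SD. Next were Podn (54.1 ± 4.10), Aspn (51.0 ± 13.9) and Prelp (47.9 ± 3.36), which overlapped each other too, and the range of Aspn also overlapped that of Lum. In Cisplatin, Prelp (17.3 ± 8.03 CPM) came after Dcn, then Bgn (7.71 ± 1.96), Ogn (7.07 ± 0.954), Aspn (6.06 ± 0.748) and Podn (5.21 ± 2.52), each overlapping the next, and then Lum (1.74 ± 0.604). In RP the order after Dcn was Ogn (60.8 ± 5.35 CPM), Bgn (45.1 ± 16.3), Lum (39.2 ± 14.5), Podn (38.0 ± 6.09), Prelp (31.0 ± 13.5) and Aspn (29.2 ± 4.07), and each again overlapped the next. Dcn made up 87.0 to 89.8% of the summed CPM of the 8 genes in RP, 88.2 to 93.2% in Cisplatin and 81.9 to 86.9% in Normal. Lum made up 1.52 to 2.32% in RP, 0.157 to 0.543% in Cisplatin and 2.21 to 3.54% in Normal.

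The log2 ratio of Dcn to Lum was 7.34 to 9.21 in Cisplatin and 4.53 to 5.30 in Normal, a mean difference of 3.31. Dcn also stood higher relative to Bgn (5.57 to 6.42 in Cisplatin, 4.21 to 5.10 in Normal) and to Ogn (5.45 to 6.65 in Cisplatin, 4.50 to 4.73 in Normal). For 2.75% of the other 12858 genes the ratio of Dcn to the gene was higher in every Cisplatin library than in every Normal one, as it was for these 3 members. Dcn stood lower relative to Prelp (4.83 to 5.16 in Cisplatin, 5.30 to 5.61 in Normal), as it did relative to 77.5% of genes. The ratios to Aspn, Omd and Podn overlapped. In RP against Cisplatin the ratio of Dcn to Lum (5.23 to 5.86 in RP, 7.34 to 9.21 in Cisplatin) and to Ogn (4.805 to 5.02 in RP, 5.45 to 6.65 in Cisplatin) was lower in every RP library, as for 1.98% of genes. The ratio to Prelp (5.51 to 6.56 in RP, 4.83 to 5.16 in Cisplatin) was higher, as for 76.5% of genes. With 3 libraries against 3 the exact two-sided permutation test cannot give p below 0.1, and every ratio whose groups did not overlap had that p (0.263 after adjustment over 21 ratio tests), so none of these differences passed.

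Further genes of the family and close relatives of it were counted as well. Of 11 such genes in the files 6 passed the filter on low counts; the 5 others had at most 29 counts over any group. Fmod, Kera, Chad and Ecm2 fell in Cisplatin against Normal and rose in RP against Cisplatin, and 2 genes rose in a fit of RP and Cisplatin alone. Chadl and Tsku were called in neither comparison. Only Ecm2 reached the minimum of the filter in every Cisplatin library. Kera and Chad passed it through Normal, where they were high, so a difference from Cisplatin was built into their choice. Ecm2, the neighbour of Aspn, had 26.4 ± 5.01 CPM in RP, 2.13 ± 0.610 in Cisplatin and 41.7 ± 2.30 in Normal, a log2 fold change of -4.31 (adjusted p = 4.45e-08) in Cisplatin against Normal. Fmod (fibromodulin), which organises tendon collagen, had 16.0 ± 2.84 CPM in RP, 1.51 ± 0.785 in Cisplatin and 69.6 ± 24.1 in Normal. Fmod was at -5.55 (adjusted p = 6.62e-08) in Cisplatin against Normal and, unlike the 8 genes, was called in RP against Normal (-2.12, adjusted p = 0.00192). With 40 counts over the Cisplatin group, Fmod did not reach the minimum of the filter in every Cisplatin library. Its difference from Cisplatin was thus in part built into its choice.

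Kera and Chad had 0 and 2 counts over the Cisplatin libraries. Kera (keratocan), the neighbour of Lum and a keratan sulfate proteoglycan of cornea and tendon, had 34 counts over the RP group, 0 over Cisplatin and 254 over Normal. Against a floor of 3 counts over the Cisplatin group Kera was at least 92.0-fold lower in Cisplatin than in Normal. By the same floor it was at least 10.5-fold higher in RP than in Cisplatin. These bounds pool the libraries of a group and leave out the spread between them, with Kera at 10.1 ± 7.11 CPM in Normal. Chad (chondroadherin), a cartilage and tendon protein, had 41 counts in RP, 2 in Cisplatin and 374 in Normal, a ratio of Normal to Cisplatin of 203 (95% counting interval 55.9 to 1685, exact Clopper-Pearson, counting error only). Chad was also called lower in RP than in Normal (log2 fold change -3.41, adjusted p = 0.00611). Since Chad passed the filter through Normal, a difference of RP from Normal was in part built into its choice as well. These 2 calls against Normal, Fmod and Chad, numbered 1 without Normal replicate 1.

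**Figure D3:**
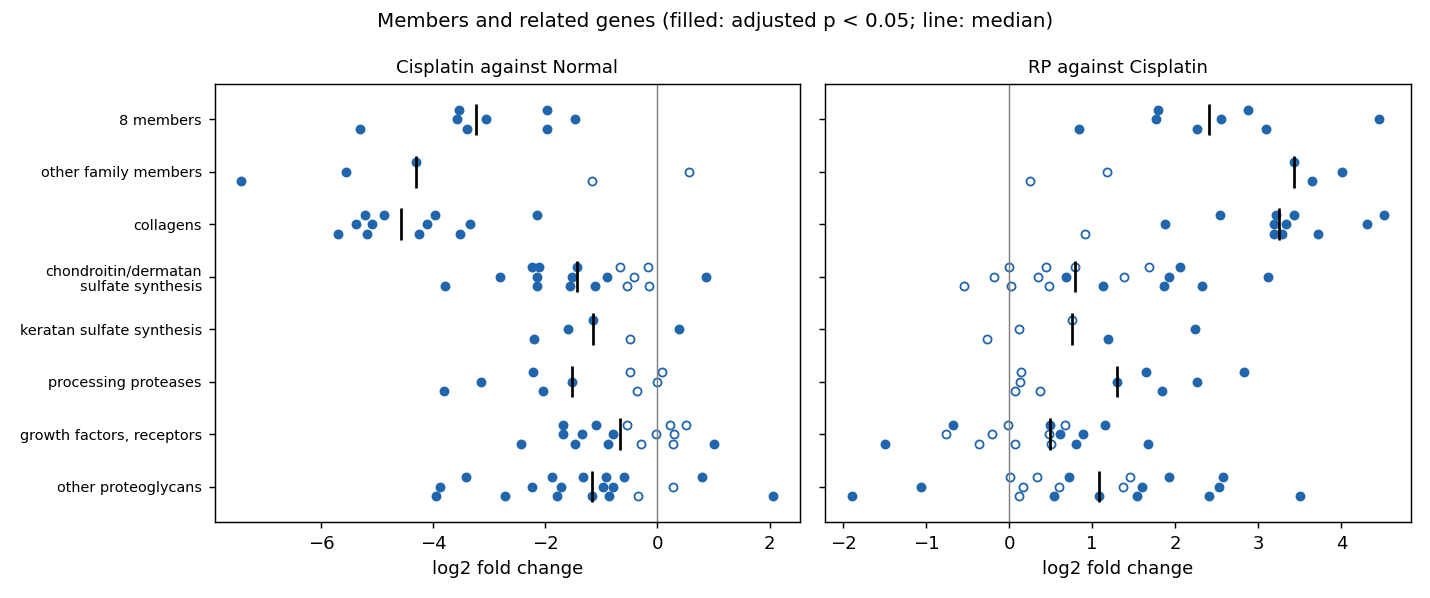
edgeR log2 fold changes of the 8 members and of the related genes that passed the filter on low counts, in Cisplatin against Normal (left) and RP against Cisplatin (right); filled points passed an adjusted p of 0.05, and vertical lines are medians of the points drawn. Kera, with 0 counts in Cisplatin, is left out; the members lie between -5.30 and -1.46 on the left and between 0.84 and 4.46 on the right.

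The collagens that these proteoglycans bind fell as well. Of 13 collagen genes in the list (fibril-forming, fibril-associated and collagen VI chains) 12 passed the filter, and all 12 fell in Cisplatin against Normal. In RP against Cisplatin 11 rose and 0 fell. Among the 9 that reached the minimum of the filter in every Cisplatin library, 9 fell and 9 rose. Col6a3, a chain of the microfibrils that decorin and biglycan bind, was at -4.88 ± 0.36 (adjusted p = 2.51e-07) in Cisplatin against Normal, and Col6a1 at -3.97 ± 0.30 (adjusted p = 3.03e-07). Col14a1, a collagen on the fibril surface, was at -5.70 ± 0.46 (adjusted p = 4.81e-07). With 18 counts over the Cisplatin group, Col14a1 did not reach the minimum of the filter in every Cisplatin library. Its fall was thus in part built into its choice. In RP against Normal 3 collagen genes, named after their values were seen, were called lower, Col12a1 at -2.42 (adjusted p = 0.00602), Col11a1 at -2.03 (adjusted p = 0.0371) and Col1a2 at -1.85 (adjusted p = 0.0425). Their number was 0 to 5 when single libraries were left out: 0 without Normal replicate 1, 5 without RP replicate 2, and 1 without Normal replicate 3, Cisplatin replicate 2, RP replicate 1 or RP replicate 3.

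Genes that build the sugar chains were counted next. Of 22 genes of chondroitin and dermatan sulfate synthesis 17 passed the filter, and in Cisplatin against Normal 11 fell and 1 rose; of the 10 that reached the minimum of the filter in every Cisplatin library, 4 fell and 1 rose. Chst14, the dermatan 4-O-sulfotransferase, was at -3.79 ± 0.58 (adjusted p = 0.000111). The chain-starting enzyme gene Csgalnact1 was at -2.11 ± 0.34 (adjusted p = 0.000167) and the uronyl sulfotransferase gene Ust at -2.81 ± 0.49 (adjusted p = 0.00031). Chst14 and Ust had 9 and 18 counts over the Cisplatin group and did not reach the minimum of the filter in every Cisplatin library. Their difference from Cisplatin was thus in part built into their choice. The riser was Chpf2 (0.86, adjusted p = 0.0106), named after its value was seen, and it was not called without Cisplatin replicate 2. Requiring 5 CPM in 3 libraries, which tests fewer genes, left 5 that fell. Between RP and Cisplatin, RP was higher for 7 and lower for 0 of the 17, and lower for 1 without Cisplatin replicate 1. Of the 10 that reached the minimum of the filter in every Cisplatin library, 3 rose and 0 fell, where 24.6% of all genes rose. Of 8 keratan sulfate genes 5 passed the filter, of which 3 fell and 1 rose in Cisplatin against Normal and 2 rose in RP against Cisplatin. Chst1, a keratan sulfate sulfotransferase gene, was at -2.20 ± 0.35 (adjusted p = 0.000167), B4galt4 at -1.59 ± 0.31 (adjusted p = 0.000692) and Chst2 at -1.15 ± 0.33 (adjusted p = 0.00948) in Cisplatin against Normal. The riser, B4galt1 (0.38, adjusted p = 0.0372), also named after its value was seen, was not called without Normal replicate 1 or 3 or Cisplatin replicate 2.

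Of 13 proteases that process or cut the core proteins 8 passed the filter, and in Cisplatin against Normal 4 fell and 0 rose, while in RP against Cisplatin 4 rose and 0 fell. Ctsk, 1 of the 4 that fell and named after its value was seen, had 14 counts over the Cisplatin group. Ctsk did not reach the minimum of the filter in every Cisplatin library, so its difference from Cisplatin was in part built into its choice. Bmp1, which trims the propeptide of biglycan, was at -2.04 ± 0.24 (adjusted p = 1.25e-05) in Cisplatin against Normal. Pcolce, listed with them, is no protease but speeds the cutting of procollagen by BMP1; it was at -3.15 ± 0.23 (adjusted p = 2.09e-07), and the secreted protease gene Htra1 at -2.22 ± 0.24 (adjusted p = 6.67e-06). Of 18 growth factors and receptors that the core proteins are known to bind or modulate, 16 passed the filter, 8 fell and 1 rose in Cisplatin against Normal (median -0.67). Of the 15 that reached the minimum of the filter in every Cisplatin library, 7 fell and 1 rose in this comparison. Tgfb2 was at -1.34 ± 0.18 (adjusted p = 3.42e-05), and the bone morphogenetic protein genes Bmp2 at -1.68 ± 0.23 (adjusted p = 4.85e-05) and Bmp4 at -1.68 ± 0.28 (adjusted p = 0.000222). The riser was the Toll-like co-receptor gene Cd14 (1.02, adjusted p = 0.0152), named after its value was seen. Risen genes of this list numbered 0 without Normal replicate 1 or Cisplatin replicate 2, and 2 without Cisplatin replicate 3. In RP against Cisplatin 6 rose and 2 fell, or 5 and 2 of those 15 genes. The genes that fell were Cd14 (-1.50) and the receptor gene Tgfbr2 (-0.68), the last also named after its value was seen. Over the whole list with single libraries left out, 2 rose without Cisplatin replicate 2, and 3 without Cisplatin replicate 3, RP replicate 1 or RP replicate 2. In RP against Normal Bmp2 was called lower (-1.18, adjusted p = 0.0371), and 0 genes of the list were without any 1 of Normal replicates 1, 2 and 3, Cisplatin replicates 1 and 2 and RP replicates 1 and 3.

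Proteoglycans of other families split. Of 26 listed, 19 passed the filter, and in Cisplatin against Normal 15 fell and 2 rose; of the 15 that reached the minimum of the filter in every Cisplatin library, 12 fell and 2 rose. In RP against Cisplatin 10 rose and 2 fell, and of those 15 genes 8 rose and 2 fell. The glypican gene Gpc3, a heparan sulfate proteoglycan of the cell surface, was at -3.88 ± 0.26 (adjusted p = 1.26e-07) in Cisplatin against Normal. With 52 counts over the Cisplatin group, Gpc3 did not reach the minimum of the filter in every Cisplatin library. Its fall was thus in part built into its choice. The syndecan gene Sdc2 was at -2.72 ± 0.23 (adjusted p = 7.95e-07) in the same comparison. Its relative Sdc4 moved the other way, with 28.3 ± 4.02 CPM in RP, 105 ± 17.8 in Cisplatin and 25.1 ± 3.19 in Normal. The log2 fold change of Sdc4 was 2.06 ± 0.17 (adjusted p = 5.76e-07) in Cisplatin against Normal and -1.89 ± 0.17 (adjusted p = 1.77e-06) in RP against Cisplatin. Serglycin (Srgn), the granule proteoglycan of blood cells, named after its value was seen, was at 0.79 (adjusted p = 0.00755) and -1.06 (adjusted p = 0.0014) in the same comparisons.

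Fibroblast markers fell and rose beside the 8 genes. Of 11 fibroblast and fibro-adipogenic progenitor markers, none of them at 0 in any library, 10 fell and 0 rose in Cisplatin against Normal and 11 rose in RP against Cisplatin. When single libraries were left out, 9 fell without Normal replicate 1 or 2, and 10 rose without RP replicate 3. Of the 8 that reached the minimum of the filter in every Cisplatin library, 7 fell and 8 rose. Their summed level was 1513 to 2350 CPM in RP, 282 to 544 CPM in Cisplatin and 1887 to 2653 CPM in Normal. Gsn (gelsolin), which other cells also express, made up 42.7 to 77.1% of that sum in single libraries. The summed CPM of the 8 genes was 1.02 to 1.22 times that of the markers in RP, 1.09 to 1.38 times in Cisplatin and 1.05 to 1.25 times in Normal, so the 3 groups overlapped on this ratio. A variant of this ratio without Gsn was chosen after seeing the data. It was 3.79 to 4.36 in RP, 1.90 to 3.48 in Cisplatin and 3.41 to 4.70 in Normal. Here Cisplatin lay below RP without overlap but overlapped Normal. The ratios without Dcn and for Lum alone were also added after seeing the data. The 7 genes other than Dcn together had 0.124 to 0.143 times the marker sum in RP and 0.0901 to 0.128 times in Cisplatin. In Normal they had 0.140 to 0.213 times that sum, so Cisplatin lay below Normal without overlap but overlapped RP. Lum alone had 1.85 to 2.36% of the marker sum in RP, 0.216 to 0.591% in Cisplatin and 2.38 to 3.70% in Normal. Cisplatin lay apart from both other groups for Lum. Since Lum had the largest change of the 8 genes, this was in part built into its choice. The part of these markers in the result was not tested.

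Tendon markers fell as well. Of 8 tendon markers, 2 of which are Fmod and Kera, 7 passed the filter and all 7 fell in Cisplatin against Normal, but 6 of the 7 were under the minimum of the filter in at least 1 Cisplatin library. In RP against Cisplatin all 7 rose, but 5 did without Cisplatin replicate 1 or 2, and 6 without RP replicate 1 or 2. Their sum was 59.1 to 96.2 CPM in RP, 6.56 to 14.04 CPM in Cisplatin and 206 to 437 CPM in Normal. In single Cisplatin libraries 2 to 4 of the 8 were at 0, Kera in all 3. Against Normal, RP was lower for 2 tendon markers, Fmod and Thbs4 (-1.97, adjusted p = 0.0244). With single libraries left out, which was added after seeing the data, 1 was lower without Normal replicate 1, RP replicate 1 or RP replicate 3. The number was 3 without RP replicate 2, 4 without Normal replicate 2 and 5 without Cisplatin replicate 3.

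Other cell types' markers moved too. Smooth muscle and pericyte markers fell in 7 of 7 cases in Cisplatin against Normal and rose in 7 of 7 in RP against Cisplatin, with sums of 382 to 468 CPM in RP, 141 to 217 CPM in Cisplatin and 429 to 502 CPM in Normal. Of the 6 that reached the minimum of the filter in every Cisplatin library, 6 fell and 6 rose. Macrophage markers fell in 5 of 6 cases and rose in 4, while the sixth, Cd68, rose in Cisplatin against Normal (2.22, adjusted p = 0.000209) and fell in RP against Cisplatin (-2.01, adjusted p = 0.000465). Of the 5 macrophage markers that reached that minimum, 4 fell and 1 rose in Cisplatin against Normal, and 4 rose and 1 fell in RP against Cisplatin. Without Cisplatin replicate 2, 5 of the 6 rose in RP against Cisplatin. Endothelial markers fell in 3 of 6 cases, or in 2 without Cisplatin replicate 2 or 3 or Normal replicate 1 or 2. They rose in 2, in 1 without Cisplatin replicate 2 or RP replicate 2, and in 3 without Cisplatin replicate 1. Of all genes tested, 28.2% fell in Cisplatin against Normal and 24.6% rose in RP against Cisplatin. Schwann cell markers fell in 2 of 4 and rose in 2, and the same numbers held among the 3 that reached that minimum. Without Cisplatin replicate 1, 3 of the 4 fell and 3 rose. Adipocyte markers fell in 6 of 6 cases in Cisplatin against Normal and rose in 6 of 6 in RP against Cisplatin, with sums of 912, 977 and 1185 CPM in RP, 238, 140 and 52.2 CPM in Cisplatin and 226, 1678 and 385 CPM in Normal. Normal replicate 2 stood apart in that sum, and Normal replicate 1 lay below Cisplatin replicate 1. Without Normal replicate 2, adipocyte markers fell in 4 of 6 cases, with a median log2 fold change of -1.68, against -3.02 with all libraries. Only 4 adipocyte markers reached the minimum of the filter in every Cisplatin library, and with all libraries these 4 fell and rose. Of 6 cartilage and bone markers only Sox9 passed the filter, at -1.12 (adjusted p = 0.00215) in Cisplatin against Normal. Thbs4, Cd68 and Sox9 were named after their values were seen. Whether these cell types had a part in the change of the 8 genes was not tested.

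**Figure D4:**
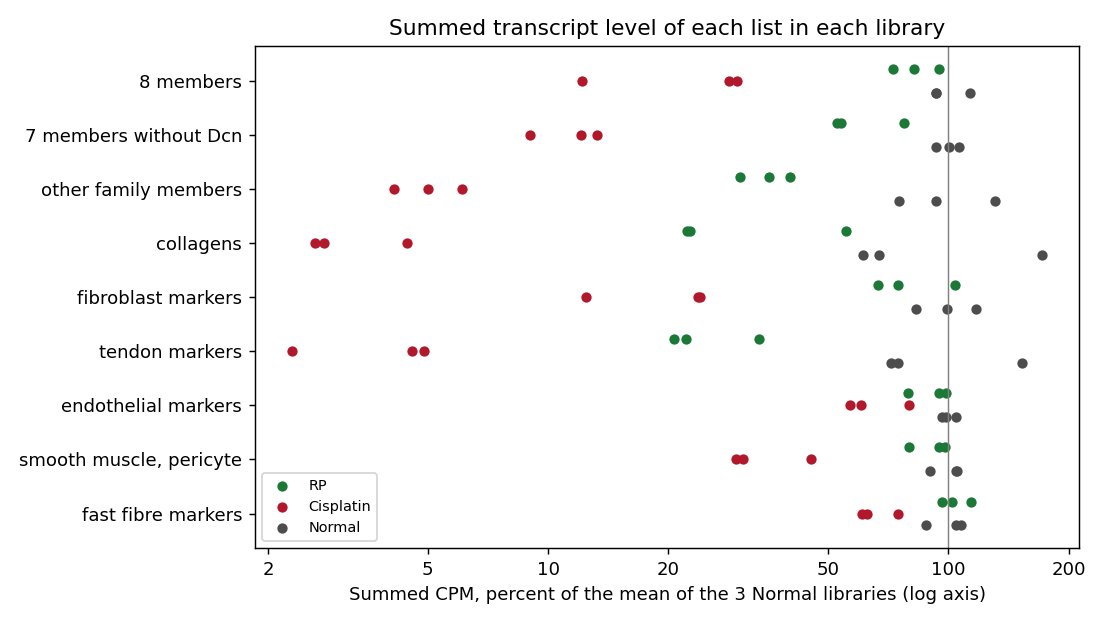
Summed CPM of each list in each library as a percentage of the mean of the 3 Normal libraries (log axis), with RP, Cisplatin and Normal points offset from top to bottom. The 8 members (307 to 750 CPM in Cisplatin, 2358 to 2854 CPM in Normal) lie near the fibroblast markers, the collagens (61.0 to 103 CPM in Cisplatin, 1426 to 3987 CPM in Normal) and tendon markers lie lower in Cisplatin, and endothelial and fast fibre markers lie closer to Normal.

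The genes whose levels ran most like the mean of the 8 over the 9 libraries were Fap, Abca8a, Steap3, Smoc2, Lama2, Itih5, Cdk14 and Pcolce, out of 9435 other genes whose mean reached 5 CPM. Likeness was the root-mean-square difference between centred log2(CPM + 0.5) values, which was 0.168 for Fap and 0.198 for Pcolce, and between 0.261 (Aspn) and 0.953 (Lum) for the members themselves. Fap, a membrane protease of activated fibroblasts, had 10.8 ± 3.65 CPM in RP, 1.85 ± 0.691 CPM in Cisplatin and 15.2 ± 1.63 CPM in Normal. Lama2, the laminin chain of the muscle basement membrane, had 26.9 ± 5.51 CPM in RP, 5.34 ± 0.301 CPM in Cisplatin and 36.9 ± 6.13 CPM in Normal. Smoc2 is one of the fibroblast markers above and Pcolce one of the processing genes. All of these genes were counted in the same libraries, so likeness describes these 9 libraries only.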

How the data were processed

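The authors deposited raw counts, 1 table for each sample, whose 23282 rows pair a symbol with a whole number of reads. Per the labels' protocols, libraries were made from 500 ng of total RNA with a Lexogen QuantSeq kit. Per the submitters' processing notes, the tools were Bowtie2 and edgeR and the build mm10. The sources used here give no versions, counting program, strand setting or annotation. Rows sharing a symbol (79 rows, 35 symbols) were summed, which left 23238 symbols.

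Counts were tested with edgeR 4.0.16 in R 4.3.3: filterByExpr by group (12859 genes), TMM scaling, glmQLFit on all 9 libraries and glmQLFTest, with Benjamini-Hochberg adjustment over all genes and a threshold of 0.05. Each SE was |log2 fold change| over √F. The procedure was tested on simulated data. The members and gene lists were chosen with earlier results of these data known. Named genes were the 8 members, up to 3 called genes of each list by adjusted p, relatives at 0 in a group, and the 8 most alike genes; others are marked where named. Alternatives were RLE or library size scaling, leaving out Rn45s, no filter, DESeq2 1.42.0, limma-voom (3.58.1), a minimum of 5 CPM in 3 libraries, compared groups alone, a replicate block, and leaving out each library. Chi-square per degree of freedom between replicates was 11.3 to 28.9, so no replicates were near-identical. Figures used matplotlib 3.10.9 in Python 3.11.15.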

Additional observations from a re-analysis of the deposited data

How the results depend on the processing

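Over 18 alternatives, the 8 genes kept their direction and their calls in Cisplatin against Normal, and in RP against Cisplatin all but Prelp did; Omd had no value with the filter of at least 5 CPM, which it did not pass. Of 429 values of single members, 409 kept direction and side of the threshold. Prelp in RP against Cisplatin was not called in a fit of the 2 groups alone (0.85) and ran from 0.44 to 1.16 with single libraries left out. In RP against Normal the count of members called lower was 0, but 3 with no filter, 3 with DESeq2, 1 with limma-voom and 0 to 2 with single libraries left out. Without a filter the values were -0.84 for Lum, -0.98 for Bgn and -0.80 for Aspn, with DESeq2 -0.85, -0.99 and -0.81, and with limma-voom -1.03 for Bgn. With single libraries left out, Lum ran from -1.17 to -0.64, Bgn from -1.32 to -0.81, Aspn from -1.002 to -0.62 and Omd from -0.36 to 0.090, reversing without Normal replicate 2 (0.061) or RP replicate 3 (0.090). All genes called in RP against Normal numbered 65, but 293 with no filter, 229 with DESeq2 and 22 to 116 with single libraries left out. The cause of these shifts was not tested. With library size as the only scaling, the median of all genes was -0.15 in Cisplatin against Normal, 0.21 in RP against Cisplatin and 0.06 in RP against Normal. Replicate numbers are shared by the groups, but 2 of 9 same-numbered pairs had deviations correlated above 0.1, so the numbers were not taken as pairing; with the replicate block 8, 8 and 0 members were called in the 3 comparisons, and 6988, 6292 and 61 genes in all, while collagen genes lower in RP than in Normal numbered 1. Low counts limit Lum in Cisplatin and Omd throughout.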

Other observations

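Single libraries did not order the 8 genes and the collagens alike. Normal replicate 1 had the highest summed collagen level, 3987 CPM against 1426 and 1561 CPM in the other Normal libraries, and the highest tendon marker sum, 437 CPM against 206 and 214 CPM. Normal replicate 2 had the highest adipocyte marker sum, 1678 CPM against 226 and 385 CPM. The summed level of the 8 genes was not highest in Normal replicate 1 (2358 CPM, against 2854 and 2358 CPM), whereas Bgn, Lum and Podn were. Among the Cisplatin libraries, replicate 3 had the lowest sum of the 8 genes (307 CPM, against 750 and 717 CPM) and the highest sum of collagens (103 CPM, against 61.0 and 63.9 CPM), it was the lowest Cisplatin library for 6 of the 8 genes, and Podn, at 8.09 CPM, was the member that was highest there. No reason for these differences was tested.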
